A study of Caenorhabditis elegans with 9 samples.

Results

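Nuclear hormone receptor genes were followed in arrays of 4 *C. elegans* strains that differ in 2 DNA repair genes. A probe set was included when the array annotation gives it 1 gene symbol and that symbol is nhr- with a number, *daf-12*, *fax-1*, *unc-55*, *odr-7* or *sex-1*. This gave 302 probe sets for 259 genes, out of 22548 probe sets tested and 17118 genes. Of the 259 genes, 35 had several probe sets, and the one with the highest mean over all arrays stands for such a gene below unless another is named. Another 14 probe sets were left out because they list more than 1 gene or gene ID, which removed 14 receptor genes that have no other probe set, among them *nhr-62*, *nhr-73*, *nhr-74* and *nhr-113*.

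Nuclear hormone receptors are transcription factors that bind DNA through a zinc finger domain, and many carry a second domain that can bind small fat-soluble molecules. The worm family is unusually large, and most of it descends from an ancestor related to the vertebrate receptor HNF4. The best-known members tie hormones and food to development and metabolism: DAF-12 binds the dafachronic acids and controls dauer entry and lifespan, NHR-49 turns on fat breakdown during fasting, and NHR-23 and NHR-25 drive the molts. For most of the others, neither a ligand nor a function is established.

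The mutant strains were *nth-1* (3 arrays), which carries a deletion in the gene of a DNA glycosylase that starts base excision repair, *xpa-1* (2 arrays), which carries a deletion in a gene of nucleotide excision repair, and *nth-1;xpa-1* (2 arrays), which carries both deletions. They were compared with the wild type N2 (2 arrays). All RNA came from backcrossed or wild-type populations of mixed stages, grown on bacterial plates until the food was gone, so each value averages over larvae, adults and all tissues of both the soma and the germ line. The methods describe separate sets of plates and 3 replicates per strain, while the labels give 2 for 3 of the strains.

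All values are log2 expression values as deposited. One limma model held all 9 arrays, p-values were adjusted by Benjamini-Hochberg over the 22548 probe sets, and a probe set is said to be called, or to have risen or fallen, at an adjusted p under 0.05. The 3 comparisons with N2 share the same 2 N2 arrays. The *xpa-1* transcript measured 6.59 and 5.66 in *xpa-1* and 6.03 and 5.78 in *nth-1;xpa-1*, against 10.57 and 10.58 in N2. The *nth-1* probe set measured 9.37 to 9.63 in *nth-1*, against 9.63 and 9.32 in N2, and checks nothing here because the place of its probes relative to the deletion is not known. BioC, a transcript spiked into each hybridization as a control, split the arrays into 2 sets, as the 3 *nth-1* arrays and *xpa-1* replicate 2 had 8.04 to 8.28, and the other 5 had 9.54 to 9.99. Both arrays of *nth-1;xpa-1* and both of N2 lie in the higher set, while *nth-1* and N2 are linked across the sets only through *xpa-1*. Replicate 3 of *nth-1* correlated at 0.95 with each of the other *nth-1* arrays, which correlated at 0.991 with each other (all probe sets).

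The receptor probe sets were of moderate level. Their means over the 9 arrays ran from 0.84 to 12.16 with a median of 7.30, against a median of 7.56 over all probe sets tested. Of the 302, 164 lay above the 40th percentile of all means, which was 7.04. Replicates of *nth-1;xpa-1* and of N2 lay close together, with a median difference between the 2 arrays of 0.16 in *nth-1;xpa-1* and 0.13 in N2 over the receptor probe sets. The spread was wider in the single mutants, where the median range was 0.44 over the 3 *nth-1* arrays and 0.29 over the 2 *xpa-1* arrays.

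In *nth-1;xpa-1*, the receptor genes that were called against N2 had all risen, and most were not called. Of the 302 probe sets, 18 (5.96%) rose and 0 fell, while over all probe sets 4.24% were called higher and 4.4% lower, so the share of rises lay near that of all probe sets. At an unadjusted p under 0.05, limma gave 60 receptor probe sets higher and 7 lower, where all probe sets gave 13.2% and 12.9%. The median difference was 0.19 over the receptor probe sets, with 209 above 0 and 93 below, against a median of 0.05 over all probe sets. Both *nth-1;xpa-1* arrays lay above both N2 arrays in 147 receptor probe sets (48.7%) and below both in 47 (15.6%), where all probe sets gave 37.9% and 31.1%. The difference was larger among the better expressed members, with a median of 0.37 in the 164 probe sets above the 40th percentile and 0.12 in the 138 others. When limma was fitted to the probe sets above that percentile alone, 16 receptor probe sets rose and 0 fell, where 5.47% of all were called higher and 7.79% lower. In a fit of the *nth-1;xpa-1* and N2 arrays alone, 104 rose and 22 fell, where 22.6% and 21.1% of all probe sets were called. That fit takes the spread from these strains only, and their arrays all lie in the higher BioC set. A fit of the whole higher set adds only 1 *xpa-1* array, which gives no spread, so it is not a separate check. Counted by gene, 15 receptor genes rose and 0 fell.

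**Figure D1:**
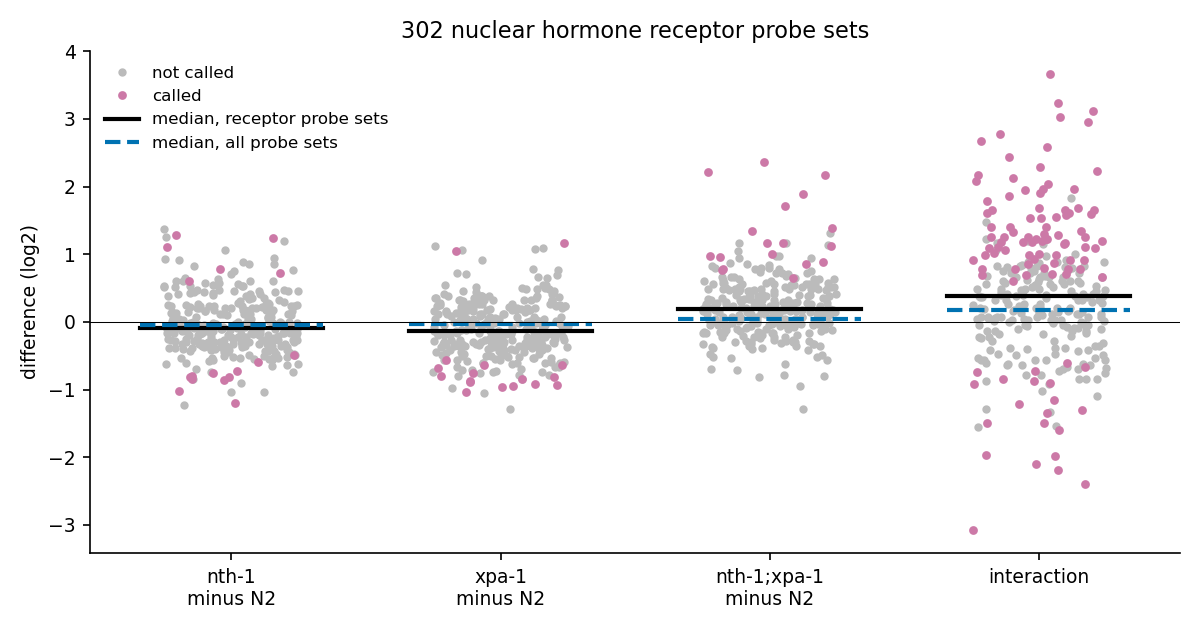
Each point is 1 of the 302 receptor probe sets, placed by its log2 difference (vertical axis) from N2 in each mutant, and by its interaction value, with black lines for the receptor median and dashed blue lines for the median of all 22548 probe sets. The called probe sets of nth-1;xpa-1 all lie above 0, and the receptor median of 0.19 there lies above the overall median of 0.05.

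The receptor with the largest rise in *nth-1;xpa-1* was *nhr-103*. It measured 9.92 and 10 in *nth-1;xpa-1*, against 7.68 and 7.51 in N2. The difference of 2.37 ± 0.29 (log2, SE) is 5.15-fold, with a limma adjusted p of 0.0037. The single mutants lay below N2 in every array, at 7.13, 6.71 and 7.40 in *nth-1* and 6.42 and 7.20 in *xpa-1*, without passing the test. In the RefSeq gene order *nhr-103* stands directly beside *nhr-18*, in a run of 7 receptor genes with a probe set here. The neighbour *nhr-18* measured 12.09 and 12.09 in *nth-1;xpa-1*, against 10.17 and 10.23 in N2, a difference of 1.89 ± 0.35 with a limma adjusted p of 0.017. The other 5 genes of the run, *nhr-56*, *nhr-128*, *nhr-126*, *nhr-134* and *nhr-96*, had differences of 0.07 to 0.64 and were not called.

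Among the risers, *nhr-274* had the smallest adjusted p. It measured 7.56 and 7.35 in *nth-1;xpa-1*, against 5.24 and 5.34 in N2, and the difference of 2.17 ± 0.19 is 4.48-fold (limma adjusted p = 0.00085). Its level in the single mutants was 4.91 to 5.16 in *nth-1* and 4.47 and 4.95 in *xpa-1*. For *nhr-103*, *nhr-18* and *nhr-274* no single-mutant array reached the lower of the *nth-1;xpa-1* arrays. No role of these 3 receptors is stated here because none was taken as established.

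Another 4 receptors for which no role is stated rose by 1.01 to 1.34. In *nhr-180* the *nth-1;xpa-1* arrays gave 10.48 and 10.28, against 8.96 and 9.11 in N2 (difference 1.34 ± 0.29, limma adjusted p = 0.027). The values of *nhr-17* were 9.34 and 9.24 in *nth-1;xpa-1*, against 8.06 and 8.20 in N2 (1.16 ± 0.22, limma adjusted p = 0.018). All of these arrays separated by strain, with every *nth-1;xpa-1* value above every N2 value. The same held for *nhr-90*, at 9.63 and 9.77 against 8.69 and 8.46 in N2, and for *nhr-206*, at 8.58 and 8.88 against 7.59 and 7.84 in N2. In limma these 2 differences were 1.12 ± 0.23 and 1.01 ± 0.23, with adjusted p of 0.022 and 0.034. The remaining risers, *nhr-101*, *nhr-105*, *nhr-108*, *nhr-122*, *nhr-171*, *nhr-190* and *nhr-95*, had differences of 0.65 to 0.98.

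The 1 riser with a known trigger was *nhr-57*, a gene switched on by the hypoxia factor HIF-1. It measured 10.44 and 10.36 in *nth-1;xpa-1*, against 9.25 and 9.22 in N2, a difference of 1.17 ± 0.30 with a limma adjusted p of 0.049. In the single mutants it lay at or below N2, with 8.49, 8.27 and 9.25 in *nth-1* and 8.13 and 8.24 in *xpa-1*. The call of *nhr-57* rests near the threshold and was lost in 8 of 18 alternative fits, with differences of 1.12 to 1.23 throughout.

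**Figure D2:**
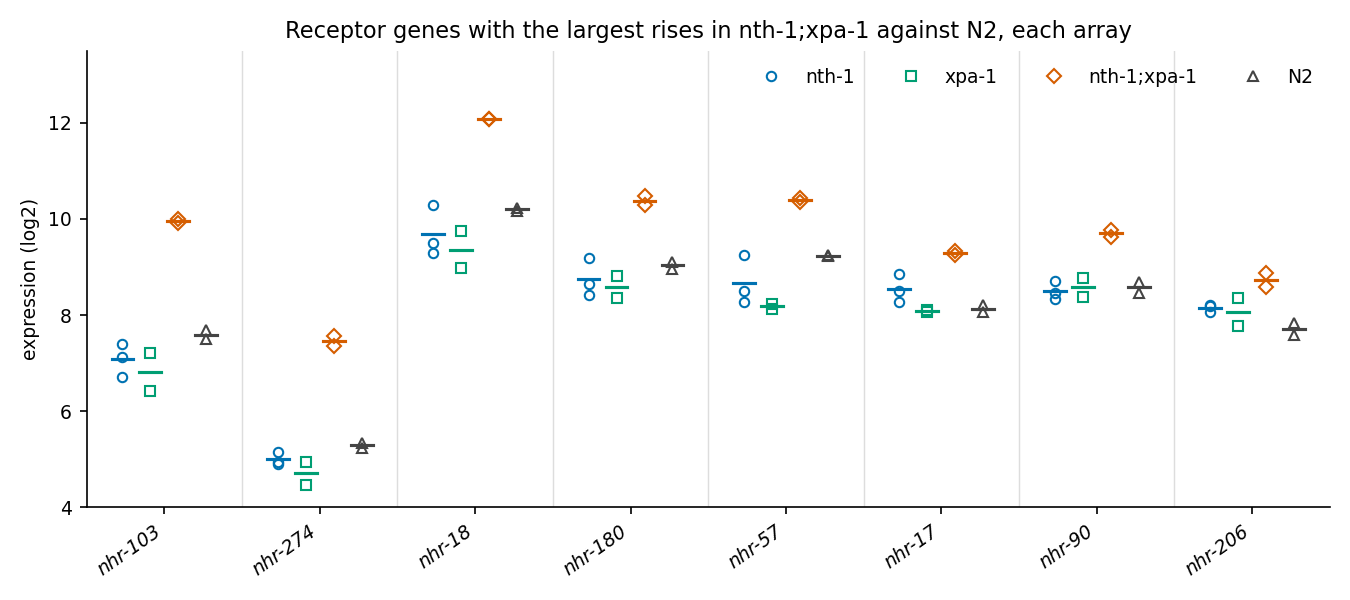
Log2 expression (vertical axis) of the 8 receptor genes with the largest rises in nth-1;xpa-1 is plotted for each array, with a short line at each strain's mean, with the single mutants at the left, nth-1;xpa-1 next and N2 at the right. Both nth-1;xpa-1 arrays lie above both N2 arrays in all 8 genes, for example at 7.56 and 7.35 against 5.24 and 5.34 in nhr-274.

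In *nth-1;xpa-1*, 2 of the 35 genes with several probe sets had some called and some not. The 4 probe sets of *nhr-88* had differences in *nth-1;xpa-1* of 1.31 (the highest in level, limma adjusted p = 0.08), 2.21 and 1.39 (both called) and -0.23 (not called). The dimmest of the 4 also fell in *nth-1* (-0.80, limma adjusted p = 0.039) and in *xpa-1* (-0.93, limma adjusted p = 0.033), so the 4 probe sets differed in call in every comparison with N2. In *nhr-109* the brighter probe set measured 9.56 and 9.29 in *nth-1;xpa-1*, against 9.36 and 9.19 in N2, while the other measured 10.34 and 10.16, against 8.61 and 8.47 in N2. Only the second was called, with a difference of 1.71 ± 0.26 (limma adjusted p = 0.0086).

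Calls in *nth-1;xpa-1* depended on each of its 2 arrays and each N2 array. The 18 calls became fewer without any 1 of these arrays, as did the calls over all probe sets. Each of those fits left 1 array in the strain concerned. The receptor medians there were 0.19 to 0.22, against 0.03 to 0.07 over all probe sets. Without *nth-1* replicate 3 the 18 calls became 64. Over all probe sets 3037 and 2873 were then called higher and lower, against 957 and 991 with every array. Of the 8 genes plotted by array, only *nhr-274* stayed called in every alternative, and *nhr-103* was lost without *nth-1;xpa-1* replicate 2 or N2 replicate 2 (adjusted p up to 0.058). Marker lists of cell types also moved in *nth-1;xpa-1*, as limma called 9 of 16 oocyte and maternal genes and 2 of 4 vitellogenins lower and 3 of 8 muscle genes higher. The log2 of the summed level was 15.10 to 15.14 in *nth-1;xpa-1*, against 15.80 to 15.82 in N2, for the oocyte and maternal list, 14.94 to 15.03 against 16.01 to 16.06 in N2 for the vitellogenins, and 14.43 to 14.45 against 13.37 to 13.51 in N2 for muscle. Of 10 neuron markers and 13 major sperm protein genes 0 were called, with summed levels of 14.16 to 14.22 against 13.64 to 13.74 in N2 for neurons and 15.59 to 15.67 against 15.02 to 15.27 in N2 for sperm. No list had a marker at 0. Fewer cells of a type and less RNA per cell cannot be told apart in such populations, and the part of these shifts in the receptor values was not tested.

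The single mutants had few receptor calls, and more of them were falls, as was so over all probe sets. In *nth-1* against N2, 6 receptor probe sets (1.99%) rose and 11 (3.64%) fell, where all probe sets gave 3.06% higher and 6.98% lower. In *xpa-1*, 2 (0.662%) rose and 15 (4.97%) fell, where all probe sets gave 3.89% higher and 6.65% lower. Rises made up 35.3% of the receptor calls in *nth-1* and 11.8% in *xpa-1*, against 30.5% and 36.9% over all probe sets. The receptor medians were -0.09 in *nth-1* and -0.13 in *xpa-1*, against -0.05 and -0.03 over all probe sets. All *nth-1* arrays lay above both N2 arrays in 58 receptor probe sets (19.2%, against 18.5% of all probe sets) and below both in 79 (26.2%, against 26.0%). Both *xpa-1* arrays lay above in 54 (17.9%, against 28.8%) and below in 119 (39.4%, against 34.4%). After quantile normalization the split in *nth-1* turned to 15 rises and 7 falls, where 3.98% and 5.56% of all probe sets were called. The 17 calls of each single mutant became fewer without any 1 of the N2 or *nth-1;xpa-1* arrays, as did the calls over all probe sets. Each of those fits left 1 array in the strain concerned. Without *nth-1* replicate 3 the 17 calls became 61 in *nth-1* and 53 in *xpa-1*. Of all probe sets, 8.85% and 18.0% were then called higher and lower in *nth-1*, and 12.8% and 15.8% in *xpa-1*. In *nth-1* the calls became 9 without its replicate 1, where 1.49% and 4.05% of all probe sets were called higher and lower. They became 11 without its replicate 2, where 2.21% and 4.63% of all were called. The calls of *xpa-1* also became fewer without its replicate 1 or its replicate 2, each of which left 1 *xpa-1* array. Without replicate 1 the receptor median in *xpa-1* was -0.06, against -0.05 over all probe sets. Without replicate 2 it was -0.17, against -0.02 over all probe sets. The lower receptor median in *xpa-1* was thus seen with replicate 1 and not with replicate 2 alone. In *xpa-1*, limma also called 2 of 16 oocyte and maternal genes, 1 of 4 vitellogenins and 2 of 8 muscle genes higher, with summed levels of 16.25 to 16.36 against 15.80 to 15.82 in N2, of 16.26 to 16.37 against 16.01 to 16.06 in N2, and of 13.61 to 14.20 against 13.37 to 13.51 in N2. In *nth-1* 0 of these markers were called, although its 3 arrays ranged from 15.62 to 15.88 for the oocyte and maternal list, 15.27 to 16.25 for the vitellogenins, 13.13 to 13.68 for muscle and 14.51 to 15.62 for sperm. Replicate 3 stood apart in *vit-4* (12.48, against 14.42 and 14.33 in replicates 1 and 2). RNA quality, read as the 3' minus 5' difference of control probe sets, was 1.62 to 1.76 for actin and 0.65 to 0.81 for ubiquitin in *nth-1*, against 1.80 to 2.01 and 0.96 to 1.18 in N2. In *xpa-1* it was 1.93 and 1.37 for actin and 0.83 and 0.69 for ubiquitin. For GAPDH it was 1.98 to 2.54 in *nth-1* and 2.91 and 1.84 in *xpa-1*, against 2.59 and 2.51 in N2, so *nth-1* overlapped N2. In *nth-1;xpa-1* it was 2.04 and 2.1 for actin, 1.15 and 1.12 for ubiquitin and 2.34 and 2.47 for GAPDH. The part of these levels in the receptor values was not tested.

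**Figure D3:**
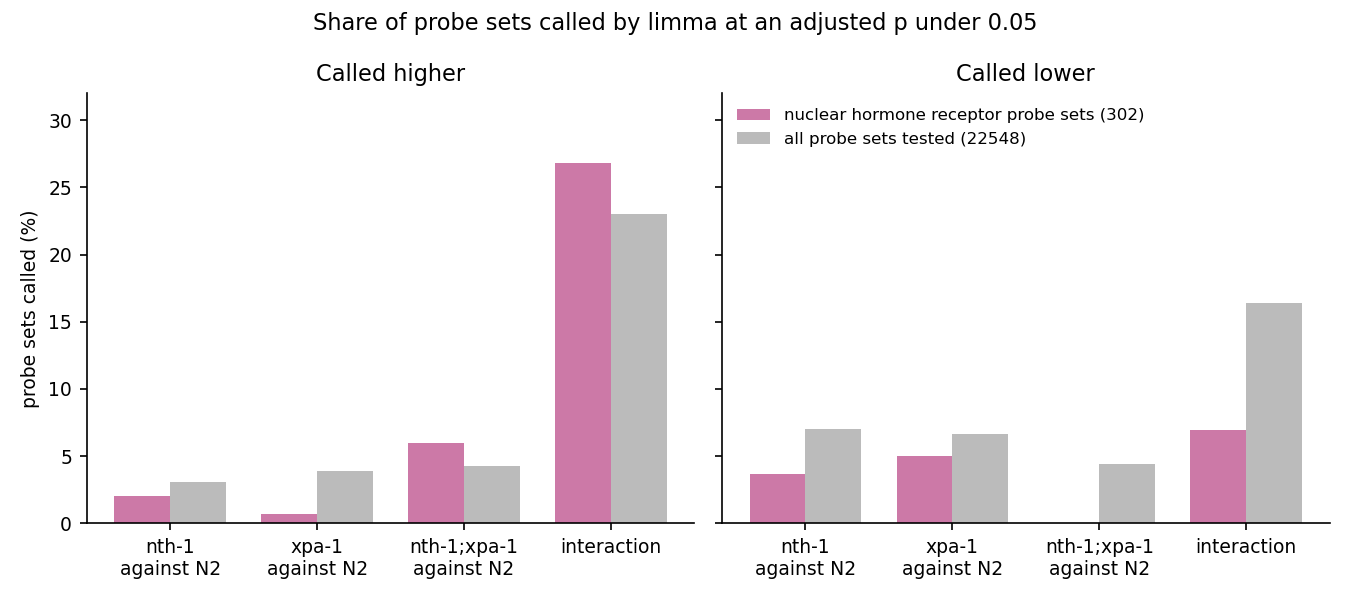
Bars give the percentage of probe sets called higher (left) or lower (right) by limma among the 302 receptor probe sets (pink) and all 22548 probe sets (grey), for each mutant against N2 and for the interaction. Receptor bars lie above the grey ones for rises in nth-1;xpa-1 and in the interaction, and below them for every group of falls.

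The receptors that rose in *nth-1* were led by *nhr-58*, *nhr-208* and *nhr-181*. In *nhr-208* the levels were 7.80, 7.90 and 7.88 in *nth-1* and 7.43 and 7.91 in *xpa-1*, against 6.57 and 6.67 in N2. The differences were 1.24 ± 0.17 in *nth-1* (limma adjusted p = 0.0042) and 1.05 ± 0.19 in *xpa-1* (limma adjusted p = 0.012), and no single-mutant array overlapped N2. The *nth-1;xpa-1* arrays lay at 6.64 and 6.40, overlapping N2. In *nhr-181* the single mutants gave 7.39, 7.65 and 7.75 (*nth-1*) and 8.06 and 7.25 (*xpa-1*), against 6.42 and 6.57 in N2. These were rises of 2.15-fold (limma adjusted p = 0.021) and 2.23-fold (limma adjusted p = 0.025). The *nth-1;xpa-1* arrays of *nhr-181* were the lowest of all 9, at 5.60 and 5.76, with a difference from N2 of -0.81 that was not called (limma adjusted p = 0.082).

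In *nhr-58* the levels followed the 2 sets of arrays within *xpa-1*. The *nth-1* arrays gave 8.16, 7.77 and 7.77, against 6.63 and 6.61 in N2, a difference of 1.28 ± 0.31 (limma adjusted p = 0.036). The *xpa-1* arrays gave 6.81 in the higher BioC set and 8.0 in the lower. With the set as a block the *nth-1* difference was 0.09. The call of *nhr-237*, at 7.29, 7.28 and 7.62 in *nth-1* against 6.62 and 6.62 in N2 (0.78 ± 0.17, limma adjusted p = 0.024), was lost with that block too, but its difference there was larger, at 1.18.

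The falls were of similar size in both single mutants. In *nhr-239* the levels were 6.13, 6.27 and 5.97 in *nth-1* and 6.30 and 6.26 in *xpa-1*, against 7.12 and 7.53 in N2. The differences were -1.20 ± 0.17 (limma adjusted p = 0.0043) and -1.04 ± 0.18 (limma adjusted p = 0.011). In *nhr-166* they were 6.94, 6.99 and 6.73 in *nth-1* and 6.99 and 6.90 in *xpa-1*, against 8.12 and 7.70 in N2, with differences of -1.02 ± 0.17 and -0.96 ± 0.18 (limma adjusted p = 0.0081 and 0.015). Every single-mutant array of these 2 genes lay below every N2 array, while the *nth-1;xpa-1* arrays lay at 7.77 and 7.54 in *nhr-239* and at 8.21 and 8.21 in *nhr-166*, above both N2 arrays.

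The other named falls in *nth-1* were *nhr-187*, *nhr-177*, *nhr-234*, *nhr-255*, *nhr-119* and *nhr-51*, with differences of -0.82 to -0.49. The other named falls in *xpa-1* were *nhr-172*, *nhr-83*, *nhr-109*, *nhr-205*, *nhr-255* and *nhr-16*, with differences of -0.94 to -0.82. None of these receptors has a role that is stated here. Of them, *nhr-119* in *nth-1* and *nhr-109* in *xpa-1* are read on the brightest probe set, and their other probe sets were not all called. Of the 35 genes with several probe sets, 6 in *nth-1* and 3 in *xpa-1* had some called and some not. In 0 of the 35 were all probe sets called alike in either strain. With the BioC set as a block, the named genes kept 1 of 12 calls in *nth-1* and 1 of 13 in *xpa-1*, and likewise 1 in each without N2 replicate 1 and without N2 replicate 2. Most of the differences kept their size with the block: all 12 lost in *xpa-1* and 7 of the 11 lost in *nth-1* stayed within 1.5 times of the value without it. In *nhr-239* they were -1.16 in *nth-1* and -1.02 in *xpa-1*, and in *nhr-166* -0.93 and -0.92. Of the other 4 in *nth-1*, *nhr-58*, *nhr-208* and *nhr-51* were smaller (0.09, 0.76 and -0.31) and *nhr-237* was larger. With the set as a block the receptor counts were 1 rise and 3 falls in each single mutant, where 0.115% and 0.315% of all probe sets were called higher and lower in *nth-1* and 1.01% and 2.35% in *xpa-1*. Within the higher BioC set alone, *xpa-1* replicate 1 against the N2 arrays gave 28 rises and 80 falls, where 17.6% and 20.3% of all probe sets were called, on the assumption that the lone array varies like the others.

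**Figure D4:**
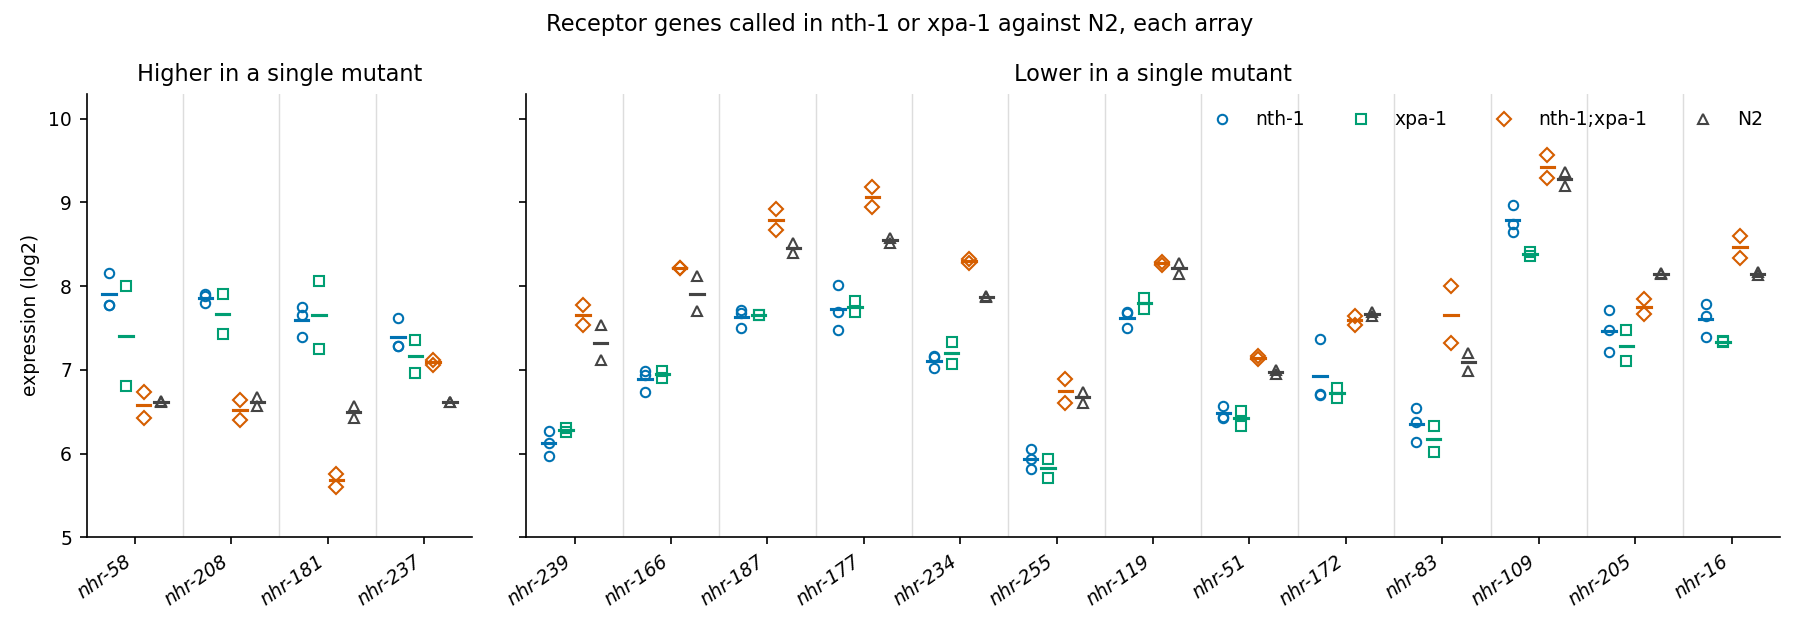
Log2 expression (vertical axis) in each array is plotted for the receptor genes named as higher (left panel) or lower (right panel) in nth-1 or xpa-1, with a short line at each strain's mean, with the single mutants at the left, nth-1;xpa-1 next and N2 at the right. In nhr-239 and nhr-166 the 5 single-mutant arrays lie between 5.97 and 6.99 and the 4 others between 7.12 and 8.21.

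No receptor separated the single mutants from each other. Between *xpa-1* and *nth-1*, 0 of 302 receptor probe sets were called, where 0.00887% and 0.0177% of all probe sets were called higher and lower. At an unadjusted p under 0.05, limma gave 4 higher and 6 lower in *xpa-1*, where all probe sets gave 5.66% and 3.18%. Without *nth-1* replicate 3, 6 receptor probe sets were called higher and 1 lower in *xpa-1*, where 4.58% and 0.621% of all were called. By contrast *nth-1;xpa-1* differed from each single mutant in many receptors. Against *nth-1*, 70 rose and 15 fell, where 21.7% and 15.0% of all probe sets were called, and against *xpa-1*, 74 rose and 12 fell, where 19.4% and 15.5% of all were called. The receptor medians were 0.25 and 0.31 in these comparisons, against 0.13 and 0.11 over all probe sets.

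The interaction asks whether the change in *nth-1;xpa-1* equals the changes of both single mutants added together, and a value above 0 means that *nth-1;xpa-1* lay above that sum. It was called above 0 in 81 receptor probe sets and below 0 in 21, where 23.0% and 16.4% of all probe sets were called. The shares of receptors were 26.8% and 6.95%, so receptors were near the overall rate above 0 and well under it below 0. The median interaction was 0.39 over the receptors and 0.17 over all probe sets. The 10 genes with the largest called values were *nhr-103* (3.67), *nhr-18* (3.24), *nhr-181* (-3.08), *nhr-274* (3.03), *nhr-88* (2.96), *nhr-57* (2.78), *nhr-239* (2.58), *nhr-208* (-2.39), *nhr-166* (2.29) and *nhr-83* (2.23), with limma adjusted p of 0.00015 to 0.0034. With the BioC set as a block 18 and 2 were called, where 4.4% and 1.94% of all were, and *nhr-88* and *nhr-57* were no longer among them (limma adjusted p of 0.13 and 0.071), although their values there were 3.12 and 2.94.

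No receptor conserved with flies and vertebrates was called against N2 by its brightest probe set. Of 14 such genes 0 rose and 0 fell in each mutant, a number of genes in which the shares over all probe sets would give few calls, with medians of -0.17 in *nth-1*, 0.04 in *xpa-1* and 0.03 in *nth-1;xpa-1*. The dafachronic acid receptor gene *daf-12* measured 8.99, 8.93 and 11.42 in *nth-1*, 10.05 and 9.81 in *xpa-1* and 10.71 and 10.54 in *nth-1;xpa-1*, against 10.02 and 10.11 in N2. The outlying *nth-1* value of 11.42 is replicate 3, and the *nth-1* group spans the range of all others. A second, dimmer probe set of *daf-12* was called lower in *nth-1*, at 4.54, 3.90 and 4.38 against 5.04 and 5.19 in N2 (-0.84 ± 0.21, limma adjusted p = 0.041).

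Replicate 3 of *nth-1* also stood apart in molting and sex determination receptors. In *nhr-25*, the worm FTZ-F1 receptor needed for molting, *nth-1* gave 9.09, 9.34 and 10.79, *xpa-1* gave 10.02 and 9.35 and *nth-1;xpa-1* gave 10.42 and 10.27, against 9.21 and 9.37 in N2. In *sex-1*, which counts X chromosomes in the embryo, *nth-1* gave 8.40, 8.54 and 10.10, *xpa-1* gave 9.82 and 8.77 and *nth-1;xpa-1* gave 9.31 and 9.37, against 9.60 and 9.70 in N2. In both genes replicate 3 lay above every N2 array while replicate 1 lay below, so *nth-1* overlapped N2, and neither gene was called in any mutant.

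In *nhr-8*, a relative of *daf-12* that acts in sterol and toxin responses, *nth-1* gave 10.27, 9.79 and 10.24 and *nth-1;xpa-1* gave 10.14 and 9.99, against 8.88 and 8.94 in N2, while *xpa-1* gave 8.64 and 10.49. The differences of 1.19 ± 0.45 and 1.16 ± 0.49 had limma adjusted p of 0.13 and 0.18, and the wide *xpa-1* pair adds to the error of every comparison. In *nhr-23*, the worm ROR-type receptor that drives molting, *nth-1* gave 9.20, 9.31 and 10.34, *xpa-1* gave 10.36 and 9.98 and *nth-1;xpa-1* gave 8.89 and 8.59, against 9.13 and 9.05 in N2. Its 2 probe sets had interaction values of opposite sign, -1.96 for the brighter and 0.99 for the dimmer, both called. The remaining conserved genes *nhr-6*, *nhr-41*, *nhr-48*, *nhr-67*, *nhr-85*, *nhr-91*, *nhr-111* and *fax-1* had differences from N2 between -0.53 and 0.55 and no call. The motor neuron gene *unc-55* was called in the interaction alone (0.78, limma adjusted p = 0.03).

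Receptors of metabolism, 18 genes measured of 19 listed, had medians of -0.01 in *nth-1*, -0.02 in *xpa-1* and 0.37 in *nth-1;xpa-1* and 1 call against N2, the rise of *nhr-57* in *nth-1;xpa-1*. The fasting receptor gene *nhr-49* measured 11.92, 11.82 and 12.41 in *nth-1*, 12.05 and 12.20 in *xpa-1* and 12.26 and 12.21 in *nth-1;xpa-1*, against 12.29 and 12.32 in N2. Its differences of -0.25, -0.18 and -0.07 were not called, and the *nth-1* arrays spanned all the others. Of its partners in fat metabolism, *nhr-80*, with 1 probe set, and the brighter probe set of *nhr-66* had 0 calls against N2, with differences of -0.14 to 0.79.

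The desaturase regulator *nhr-13* measured 9.77, 9.60 and 9.42 in *nth-1* and 9.57 and 9.66 in *xpa-1*, against 8.96 and 8.97 in N2. The differences of 0.63 ± 0.18 and 0.65 ± 0.20 had limma adjusted p of 0.062 and 0.071, although no single-mutant array overlapped N2. In *nth-1;xpa-1* the gene lay below N2 in both arrays, at 8.73 and 8.57, and its interaction was -1.60 (limma adjusted p = 0.0023).

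The same ordering was seen in *nhr-86*, a receptor that senses a bacterial metabolite in immune defence. It gave 10.12, 10.05 and 9.80 in *nth-1*, 10.18 and 10.13 in *xpa-1* and 8.95 and 8.60 in *nth-1;xpa-1*, against 9.53 and 9.26 in N2, with an interaction of -1.98 (limma adjusted p = 0.0014). The single mutants lay above N2 and *nth-1;xpa-1* lay below it without overlap, and none of the 3 differences from N2 was called. In *nhr-114*, which protects animals on poor bacterial diets, the interaction was -0.72 (limma adjusted p = 0.037). Interactions above 0 were called in *nhr-57*, *nhr-64* (1.59), *nhr-10* (1.23) and *nhr-28* (0.91).

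NHR-10 and NHR-68 switch on the propionate shunt, a path that breaks down propionate when vitamin B12 is scarce. In *nhr-68* the levels were 9.56, 9.54 and 9.35 in *nth-1*, 7.83 and 9.24 in *xpa-1* and 7.40 and 7.14 in *nth-1;xpa-1*, against 8.22 and 8.89 in N2. The *nth-1;xpa-1* arrays were the lowest, and the 2 *xpa-1* arrays lay on either side of N2. No difference from N2 was called, and the interaction was -2.19 (limma adjusted p = 0.015). The *xpa-1* value of 7.83 is from the higher BioC set and that of 9.24 from the lower, and with the set as a block the interaction of *nhr-68* was -0.08 (limma adjusted p = 0.95). In *nhr-10* the levels were 10.21, 10 and 10.51 in *nth-1*, 9.98 and 10.21 in *xpa-1* and 11.04 and 10.97 in *nth-1;xpa-1*, against 10.47 and 10.65 in N2. Here the *nth-1;xpa-1* arrays were the highest, and no difference from N2 was called.

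Genes regulated by NHR-49 held calls that the receptor itself did not. Of 10 NHR-49 target genes, 4 rose and 0 fell in each single mutant, with medians of 0.57 in *nth-1* and 0.79 in *xpa-1*, and 1 rose and 2 fell in *nth-1;xpa-1*, with a median of -0.20. The fatty acyl-CoA synthetase gene *acs-2* measured 12.53, 12.32 and 12.11 in *nth-1*, 12.55 and 12.84 in *xpa-1* and 11.37 and 11.11 in *nth-1;xpa-1*, against 9.80 and 10.05 in N2. All 7 mutant arrays lay above N2. The rises were 2.40 ± 0.17 in *nth-1*, 2.77 ± 0.19 in *xpa-1* and 1.31 ± 0.19 in *nth-1;xpa-1*, with limma adjusted p of 0.0002, 0.00019 and 0.0073. The first 2 rises stayed called in every alternative, and the third was lost without any 1 of the *nth-1;xpa-1* or N2 arrays.

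The glyoxylate cycle gene *icl-1* rose by 1.04 ± 0.17 and 1.63 ± 0.19 in *nth-1* and *xpa-1*, *hacd-1* by 1.51 ± 0.22 and 1.53 ± 0.24, and *acs-11* by 1.34 ± 0.29 and 1.31 ± 0.31 (limma adjusted p of 0.0025 to 0.034). In *nth-1;xpa-1* these 3 had differences of -0.10 to 0.30 and no call. Of these 6 rises, only that of *icl-1* in *xpa-1* stayed called in every alternative. The others were lost without N2 replicate 1 or 2. All 3 rises in *nth-1* and that of *acs-11* in *xpa-1* were also lost with the BioC set as a block. Over the alternatives, the lowest differences in *nth-1* were 0.44 for *icl-1*, 0.78 for *hacd-1* and 0.41 for *acs-11*. The falls in *nth-1;xpa-1* were the palmitoyl-CoA desaturase gene *fat-5*, at 7.70 and 8.17 against 10.14 and 10.29 in N2 (-2.28 ± 0.26, limma adjusted p = 0.0028), and *cpt-5*, at 5.17 and 5.31 against 6.92 and 7.17 in N2 (-1.80 ± 0.20, limma adjusted p = 0.0024). Neither overlapped with N2, and the call of *fat-5* was lost without N2 replicate 2 while that of *cpt-5* held in every alternative. The stearoyl-CoA desaturase genes *fat-6* and *fat-7* were not called in any mutant. The interaction was called below 0 in 7 of the 10 targets and above 0 in 0, with a median of -2.31. With the BioC set as a block the counts of rises among the targets were 1 in *nth-1* and 3 in *xpa-1*, and 2 interactions were called.

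In the propionate shunt, 2 of 5 genes rose in each single mutant and 0 were called in *nth-1;xpa-1*. The first gene of the shunt, *acdh-1*, measured 11.09, 10.61 and 9.98 in *nth-1*, 10.09 and 10.36 in *xpa-1* and 8.11 and 8.21 in *nth-1;xpa-1*, against 8.78 and 9.05 in N2. Every single-mutant array lay above N2 and both *nth-1;xpa-1* arrays lay below it. The differences were 1.65 ± 0.30 (limma adjusted p = 0.013), 1.31 ± 0.33 (limma adjusted p = 0.04) and -0.75 ± 0.33 (limma adjusted p = 0.19). The shunt gene *hphd-1* rose by 1.40 ± 0.19 and 1.26 ± 0.21 in *nth-1* and *xpa-1* and had a difference of 0.00 in *nth-1;xpa-1*. Interactions were called below 0 in 4 of the 5 genes and above 0 in 1. The calls of both rises were lost in either single mutant with the BioC set as a block, and without N2 replicate 1 or 2. With the block *acdh-1* still differed by 1.38 in *nth-1* and 1.18 in *xpa-1*, and *hphd-1* by 1.03 and 1.07.

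**Figure D5:**
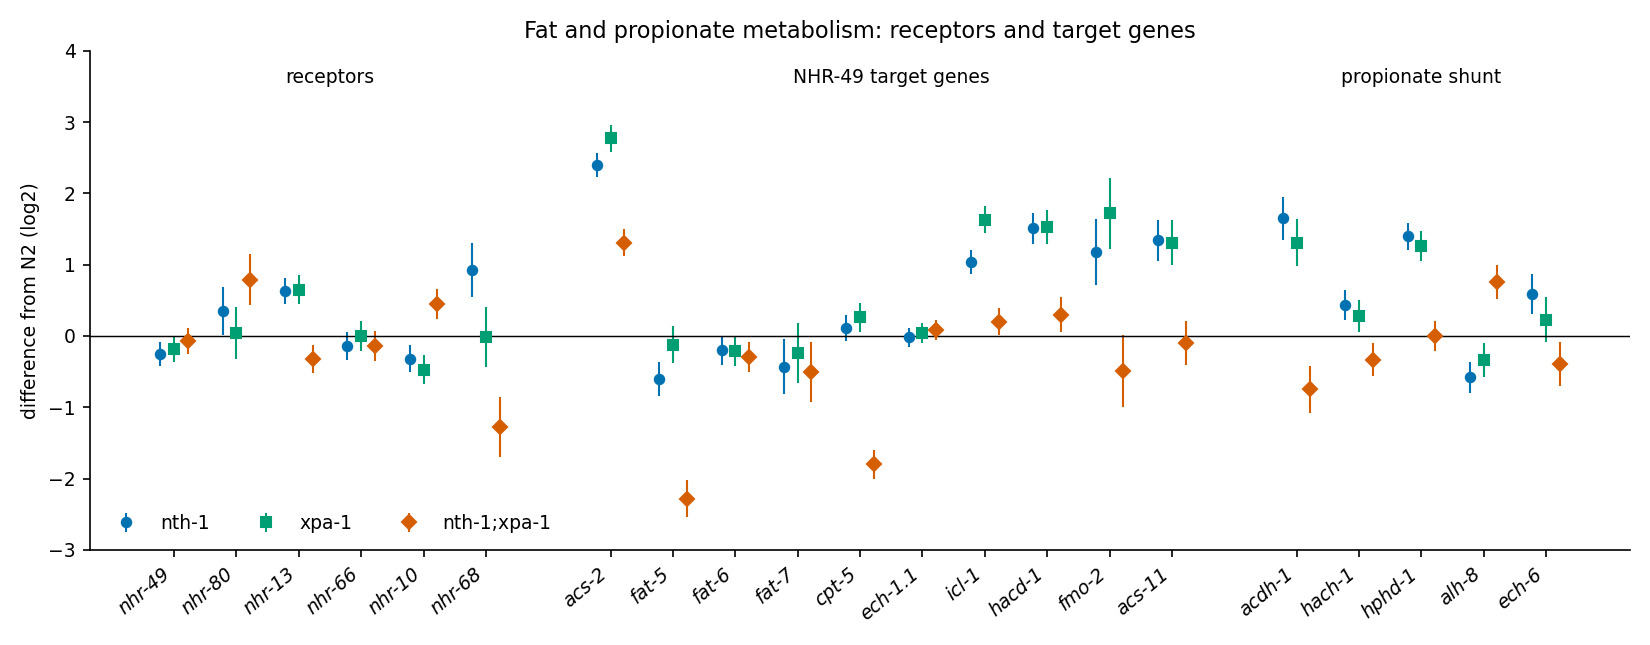
Log2 differences from N2 with standard errors of the fit (vertical axis) are plotted for 6 receptors of fat and propionate metabolism, 10 NHR-49 target genes and 5 genes of the propionate shunt in each of the 3 mutants. The receptors lie between -1.28 and 0.93, while acs-2 reaches 2.77 in xpa-1 and fat-5 falls to -2.28 in nth-1;xpa-1.

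The other pathway lists held few calls against N2. Of 9 genes of the DAF-12 hormone pathway, 1 rose in *nth-1;xpa-1*, *ncr-2*, a Niemann-Pick type C relative that moves cholesterol, at 8.96 and 8.82 against 7.12 and 7.15 in N2 (1.75 ± 0.25, limma adjusted p = 0.0073). It was not called in the single mutants, and the call was lost without any 1 of the *nth-1;xpa-1* or N2 arrays. Of 21 molting and cuticle genes measured, 2 rose in *nth-1*, the astacin proteases *nas-36* (0.59 ± 0.14) and *nas-37* (1.67 ± 0.40), with limma adjusted p of 0.032 and 0.033. In *nas-37* the *xpa-1* arrays gave 8.33 in the higher BioC set and 9.86 in the lower, and both calls were lost with the set as a block or without N2 replicate 1 or 2. Of 5 coregulators and 8 genes of sex determination and dosage compensation, 0 were called in any mutant against N2.

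The 4 genes listed for development, *nhr-2*, *nhr-40*, *nhr-60* and *odr-7*, had 0 calls against N2. The early embryonic gene *nhr-2* measured 8.50, 9.01 and 9.37 in *nth-1*, 9.77 and 8.14 in *xpa-1* and 8.32 and 8.52 in *nth-1;xpa-1*, against 9.16 and 9.28 in N2. Both *nth-1;xpa-1* arrays lay below N2 by a mean of 0.80, which was not called (limma adjusted p = 0.33). A dimmer probe set of *nhr-40* was called higher in *nth-1* (0.60 ± 0.15, limma adjusted p = 0.041), where the brighter one had a difference of 0.06. In *odr-7*, which specifies the AWA olfactory neurons, the interaction was 1.26 (limma adjusted p = 0.005).

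Receptor genes often lie side by side in the worm genome. In the RefSeq gene order, 106 of the 248 member genes listed there under the same symbol as a protein-coding gene had another member as a direct neighbour, in 33 runs of up to 9 genes. Of the genes in runs, 5 rose in *nth-1;xpa-1*, in 4 of the runs, and *nhr-103* with *nhr-18* was the 1 adjacent pair. The order of genes is given from RefSeq alone, since the array files name no genome build.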

How the data were processed

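RNA from 9 populations was hybridized to *C. elegans* arrays of 22625 probe sets. The authors normalized the arrays in dChip to an invariant set, computed model-based expression from perfect-match probes and deposited the values as log2 values (0 to 14.55, array medians 7.43 to 7.69). The dChip version and genome build are not given in the sources used here. The number of arrays limits the precision. The 77 control probe sets were left out. All 302 receptor probe sets matched the RefSeq table (WBcel235) by gene ID. The table was used only for names and neighbours, and gene order was read for the 248 genes listed there as protein-coding under the platform's symbol.

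The limma package (version 3.58.1, run under R 4.3.3) fitted 1 coefficient per strain, with 5 residual degrees of freedom, by lmFit and eBayes with a variance trend. The fit was tested on simulated data. The members and lists were chosen with earlier results of these data known. Named are the role genes, up to 8 rises and 8 falls per mutant that passed with no overlap with N2, up to 10 interactions, and up to 3 pathway genes per list and comparison. Further genes were named after their values were seen: the remaining risers of *nth-1;xpa-1*, genes beside *nhr-103*, dimmer probe sets and other called pathway genes. Alternatives were quantile normalization, an offset of 32, no variance trend, only the better expressed probe sets (above the 40th percentile), a block for the replicate number, pairs of strains alone, each array left out, and the BioC set, a grouping found in the data, as a block or alone. Same-numbered arrays did not deviate together (correlations of deviations -0.262 to 0.104). Plots were made in Python 3.11.15 using matplotlib 3.10.9.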

Additional observations from a re-analysis of the deposited data

Results flagged for a closer look

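By limma's test of the interaction, the effect of losing both genes differed from the sum of the single effects in many probe sets. It lay above 0 in 81 receptor probe sets (26.8%, against 23.0% of all). It lay below 0 in 21 (6.95%, against 16.4% of all), so the share above 0 was near that of all probe sets. With the BioC set as a block 18 and 2 receptor probe sets were called, where 4.4% and 1.94% of all were. The median interaction over the receptors was 0.50 with the block and 0.39 without it, against 0.12 and 0.17 over all probe sets.

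Among the named genes, values above 0 were *nhr-103* 3.67, *nhr-18* 3.24, *nhr-274* 3.03, *nhr-88* 2.96, *nhr-57* 2.78, *nhr-239* 2.58, *nhr-166* 2.29, *nhr-83* 2.23, *nhr-177* 2.13, *nhr-180* 2.08, *nhr-187* 1.97, *nhr-234* 1.86, *nhr-16* 1.68, *nhr-255* 1.65, *nhr-172* 1.61, *nhr-64* 1.59, *nhr-109* 1.53, *odr-7* 1.26, *nhr-10* 1.23, *nhr-51* 1.22, *nhr-90* 1.20, *nhr-205* 1.16, *nhr-119* 1.06, *nhr-28* 0.91 and *unc-55* 0.78. Values below 0 were *nhr-181* -3.08, *nhr-208* -2.39, *nhr-68* -2.19, *nhr-58* -2.10, *nhr-86* -1.98, *nhr-23* -1.96, *nhr-13* -1.60, *nhr-237* -0.85 and *nhr-114* -0.72. Of these 34 values, 9 stayed called with the BioC set as a block: *nhr-103*, *nhr-18*, *nhr-274*, *nhr-239*, *nhr-166*, *nhr-83*, *nhr-187*, *nhr-181* and *nhr-208*. Of the 25 that lost the call, 18 stayed within 1.5 times of the value without the block, *nhr-237* and *nhr-90* were larger, and 5 were smaller: *nhr-58* -0.31, *nhr-205* 0.60, *nhr-114* -0.38, *nhr-28* 0.53 and *nhr-68* -0.08. No strain has 4 arrays, so single arrays could not be tested as outliers.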

How the results depend on the processing

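No named call was reversed in any alternative. In the cases below, the number called over all probe sets moved in the same direction as that of the receptors. The number of receptor probe sets called moved by over 1.5 times as follows. With the BioC set as a block it was 4 in *nth-1*, against 17, where 0.115% and 0.315% of all probe sets were called higher and lower. It was 4 in *xpa-1*, against 17, where 1.01% and 2.35% of all were called. In *nth-1;xpa-1* against *nth-1* it was 17, against 85, where 3.35% and 1.43% of all were called. In the interaction it was 20, against 102, where 4.4% and 1.94% of all were called. Within the higher set it was 108 in *xpa-1* and 126 in *nth-1;xpa-1* against N2 and 157 in *nth-1;xpa-1* against *xpa-1*. With pairs of strains alone it was 29 in *xpa-1* and 126 in *nth-1;xpa-1*. Among probe sets above the 40th percentile, where fewer are tested, it was 8 in *nth-1*, where 3.54% and 5.55% of all were called. It was 11 in *xpa-1*, where 5.78% and 7.03% of all were called, and 61 in the interaction, where 20.5% and 23.7% were. Leaving out each array in turn gave 1 to 61 in *nth-1*, 1 to 53 in *xpa-1*, 1 to 64 in *nth-1;xpa-1*, 37 to 131 and 38 to 127 in *nth-1;xpa-1* against *nth-1* and *xpa-1*, 0 to 7 in *xpa-1* against *nth-1* and 63 to 148 in the interaction. The highest of these counts came without *nth-1* replicate 3. All probe sets then gave, higher and lower, 8.85% and 18.0% in *nth-1* and 12.8% and 15.8% in *xpa-1*. They gave 31.3% and 19.2% in *nth-1;xpa-1* against *nth-1* and 28.7% and 21.5% against *xpa-1*. In *xpa-1* against *nth-1* they gave 4.58% and 0.621%, and in the interaction 32.1% and 21.3%. Except in *xpa-1* against *nth-1* the lowest counts came without an N2 or *nth-1;xpa-1* array, which left 1 array in that strain. The cause of these moves was not tested.

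The arrays share only a replicate number. With the replicate number as a block the counts were 53 in *nth-1*, 47 in *xpa-1*, 54 in *nth-1;xpa-1* and 6 in *xpa-1* against *nth-1*. All probe sets gave, higher and lower, 7.0% and 15.5%, 10.5% and 13.6%, 11.6% and 10.8%, and 3.25% and 0.377%. This block ended no named call. Number 3 occurs only in *nth-1*, so the block gives that array a term of its own. The fit is therefore close to leaving that array out and is not a separate check. Crossed numbers as a block, an alternative added after seeing the data, gave 61 in *nth-1;xpa-1*, where 12.6% and 11.7% of all were called. Quantile normalization turned the split in *nth-1* to 15 rises and 7 falls (68.2% rises, against 35.3%) and gave 63 and 34 in the interaction (64.9%, against 79.4%), where it also shifted the median of all probe sets to 0.00, against 0.17. No fold or count here has more than 3 arrays per strain behind it.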
